A study of Homo sapiens with 6 samples.

Results

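The genes described here are 50 genes of the mitotic spindle, the kinetochore and the steps around them, taken by symbol from a gene count table of 58735 genes. All 50 symbols were found once in the table and all 50 passed the filter on low counts, which left 16655 genes to test. The table comes from RNA sequencing of T3M4, an established human pancreatic ductal adenocarcinoma cell line grown without treatment and harvested near confluence. Its 6 libraries form 2 groups of 3. One group is titled T3M4WT with the genotype MUC16 expressing, and the other is titled T3M4M16 with the genotype MUC16 knockout. The labels give no editing method, and neither name the knockout cells as 1 clone or a pool nor tie the libraries to separate cultures, so p-values measure only the spread between these libraries, which may be technical.

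Cells commit to mitosis when the kinase CDK1 is switched on by cyclins A and B, and the transcription factor FOXM1 with the MuvB complex raises a shared set of genes shortly before. Kinetochores, built on the centromere, bind spindle microtubules, and a checkpoint holds the anaphase-promoting complex inactive until every chromosome is attached. Transcripts of these genes are abundant only in the later part of the cell cycle, and their summed level is widely used as a measure of how many cells are dividing. In RNA from many cells, fewer cells in that phase and less RNA per cell cannot be told apart.

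Library totals ran from 19088927 to 28612621 counts. MUC16, the targeted gene, went against its label: the 3 WT-labelled libraries held 98, 144 and 90 counts and the 3 knockout-labelled ones 292, 504 and 323 (a log2 difference of 1.79 ± 0.17, SE, adjusted p = 4.79e-09 by edgeR's quasi-likelihood test with Benjamini-Hochberg adjustment). Lower or higher below always means knockout-labelled libraries against WT-labelled ones, whatever MUC16 did in them. All 8 epithelial markers were present, the lowest at a mean of 112 CPM (a gene's counts scaled by library total and TMM factor), and their summed level was 3727 to 3810 CPM in WT-labelled libraries and 5812 to 6084 CPM in knockout-labelled ones. Of markers of other cell types, 5 of 7 fibroblast, 5 of 6 immune, 2 of 4 endothelial and 5 of 5 acinar and endocrine genes stayed under 1 CPM in every library, with CPA1 and GCG at 0 throughout. The fibroblast sum was 31.6 to 34.7 CPM in WT-labelled libraries and 42.9 to 47.2 CPM in knockout-labelled ones, mostly COL1A1, the immune sum 3.0 to 3.12 and 4.32 to 5.42 CPM, mostly CD14, and the endothelial sum 13.4 to 16.6 and 19.7 to 22 CPM, mostly PECAM1. The acinar and endocrine sum stayed at or under 0.134 CPM. Mitochondrial transcripts took 2.10% ± 0.142 and 2.09% ± 0.104 of the counts (SD, n = 3 each). The part of these markers in the results was not tested.

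Promoters of mitotic genes are known for CCAAT boxes and for a further element near the start, and 6 are printed here because they belong to the 5 genes with the largest falls and to CCNB2, which fell least of those with a promoter in the RefSeq table used (GRCh38.p14). Each stretch runs from 150 bases before the start site to 20 after it, 5′ to 3′ on the strand of the gene. Capitals mark CCAAT, the letters bound by NF-Y, and TTTGAA or TTCGAA, forms of the cell cycle genes homology region (CHR) bound by MuvB, on either strand.
CDC20, chr1:43358831-43359000, plus strand: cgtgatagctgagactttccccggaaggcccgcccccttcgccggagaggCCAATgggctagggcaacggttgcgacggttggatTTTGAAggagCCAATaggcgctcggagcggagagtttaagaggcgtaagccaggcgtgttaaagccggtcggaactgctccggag
KIF20A, chr5:138178962-138179131, plus strand: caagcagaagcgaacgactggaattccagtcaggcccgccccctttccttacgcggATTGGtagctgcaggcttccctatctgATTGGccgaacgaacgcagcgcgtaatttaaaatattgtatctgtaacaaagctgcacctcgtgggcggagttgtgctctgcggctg
CCNB1, chr5:69167000-69167169, plus strand: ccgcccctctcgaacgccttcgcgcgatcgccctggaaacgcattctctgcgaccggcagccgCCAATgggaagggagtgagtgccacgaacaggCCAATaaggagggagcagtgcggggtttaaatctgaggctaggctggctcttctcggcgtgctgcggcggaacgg
MKI67, chr10:128126404-128126573, minus strand: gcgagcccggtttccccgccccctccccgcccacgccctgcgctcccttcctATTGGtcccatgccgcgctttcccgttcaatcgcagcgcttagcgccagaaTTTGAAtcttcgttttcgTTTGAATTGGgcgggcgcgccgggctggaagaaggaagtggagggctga
PLK1, chr16:23678739-23678908, plus strand: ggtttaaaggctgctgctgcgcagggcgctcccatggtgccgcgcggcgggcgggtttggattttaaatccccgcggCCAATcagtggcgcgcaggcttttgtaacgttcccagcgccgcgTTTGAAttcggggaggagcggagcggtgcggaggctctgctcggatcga
CCNB2, chr15:59104996-59105165, plus strand: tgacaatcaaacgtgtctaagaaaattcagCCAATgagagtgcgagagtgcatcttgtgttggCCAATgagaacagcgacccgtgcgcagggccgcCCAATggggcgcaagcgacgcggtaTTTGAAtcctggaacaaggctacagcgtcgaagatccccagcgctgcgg
CDC20 carries TTTGAA between a pair of CCAAT boxes, CCNB2 carries 3 CCAAT boxes upstream of TTTGAA in this stretch, and in MKI67 a TTTGAA overlaps a CCAAT on the opposite strand. KIF20A and CCNB1 show 2 CCAAT boxes each, read on the opposite strand in KIF20A, and neither CHR form in these stretches.

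Such letters were frequent across the group. Of the 50 genes, 41 matched the promoter table, which gives 250 bases before and 50 after each start, with 51 windows in all. FOXM1, AURKA, BUB3, TTK, UBE2C, CENPH, CENPM, BIRC5 and TPX2 did not. For 37 of the 41, the first 25 bases after a start were found in an annotated transcript of the gene, and all 41 were kept. CCAAT, on either strand, was in 34 of the 41 genes (82.9%), against 42.9% of 11150 tested genes with a window. TTTGAA was in 31 genes (75.6%) against 13.7%, and TTCGAA in 3 (7.32%) against 2.28%. Both a CCAAT and one of these CHR forms stood in 28 genes (68.3%) against 6.5%. By window, TTTGAA was in 34 of 51 (66.7%) against 15.2% of all 35116 windows, and CCAAT in 39 (76.5%) against 34.6%. The TTTGAA matches lay near the start, 36 of 47 from 100 bases before it onwards (76.6%), where 41.4% of the matches in all windows lie. The E2F-type letters TTTGGCGC, TTTCCCGC and TTCCCGCC, of which the last pair overlap, were in 5 of 41 genes together (12.2%) against 8.95%, as the plot of promoter motifs shows. A further CHR form, TTTAAA, was searched only after the windows had been seen. It was in 15 genes (36.6%) against 11.1%, among them KIF20A, CCNB1, PTTG1, CENPE and KIF2C, which have neither of the other forms. A match is a description of the letters and not of a bound site.

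**Figure D1:**
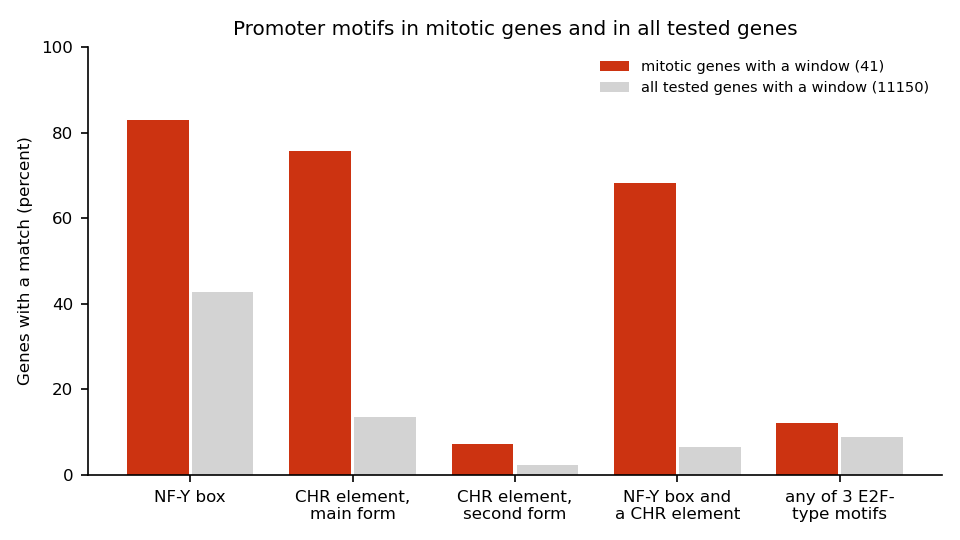
Share of genes with a match (percent, vertical axis) for each motif class in the 41 mitotic genes with a promoter window (red) and in all 11150 tested genes with one (grey). NF-Y box stands for CCAAT and CHR element for TTTGAA (main form) or TTCGAA (second form); the main CHR form is in 75.6% of the mitotic genes and 13.7% of all.

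The genes were also split by the presence of these letters. The median log2 fold change was -0.44 over the 33 genes with TTTGAA or TTCGAA (from -0.93 to -0.19) and -0.58 over the 8 without (from -0.86 to -0.41). On chromosome 5 lie 2 of the first and 4 of the second, and without them the medians were -0.44 (31 genes) and -0.51 (4 genes). Over all tested genes the same split gave medians of -0.03 (1719 rows of the gene table) and 0.00 (9434 rows), with 33.1% and 29.1% called lower.

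As a group, 49 of the 50 genes were lower in knockout-labelled libraries and 0 were higher (edgeR quasi-likelihood, Benjamini-Hochberg adjusted p under 0.05 over all 16655 genes). At an unadjusted p under 0.05 there were also 0 higher, DESeq2 gave 47 lower and 0 higher, and limma-voom 49 lower and 0 higher. Among all genes tested 25.9% were called lower and 26.7% higher by edgeR, and 24.3% lower by DESeq2. With limma-voom 4331 of the 16655 were lower and 4435 higher. In 49 genes every knockout-labelled library lay under every WT-labelled one, which was so for 29.0% of all genes. The median log2 fold change was -0.48 over the 50 genes and 0.00 over all genes. The falls were moderate: 15 genes were lower by at least 1.5-fold (4.77% of all genes tested) and 0 by 2-fold (1.36% of all genes). Together the 50 genes took 0.638%, 0.633% and 0.640% of all counts in WT-labelled libraries and 0.461%, 0.462% and 0.466% in knockout-labelled ones. The authors' deposited table calls 47 of the 50 lower at its adjusted p under 0.05, and CENPH, NUSAP1 and PRC1 do not pass there. It lists 29015 genes, and the share of them called lower was not computed here.

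**Figure D2:**
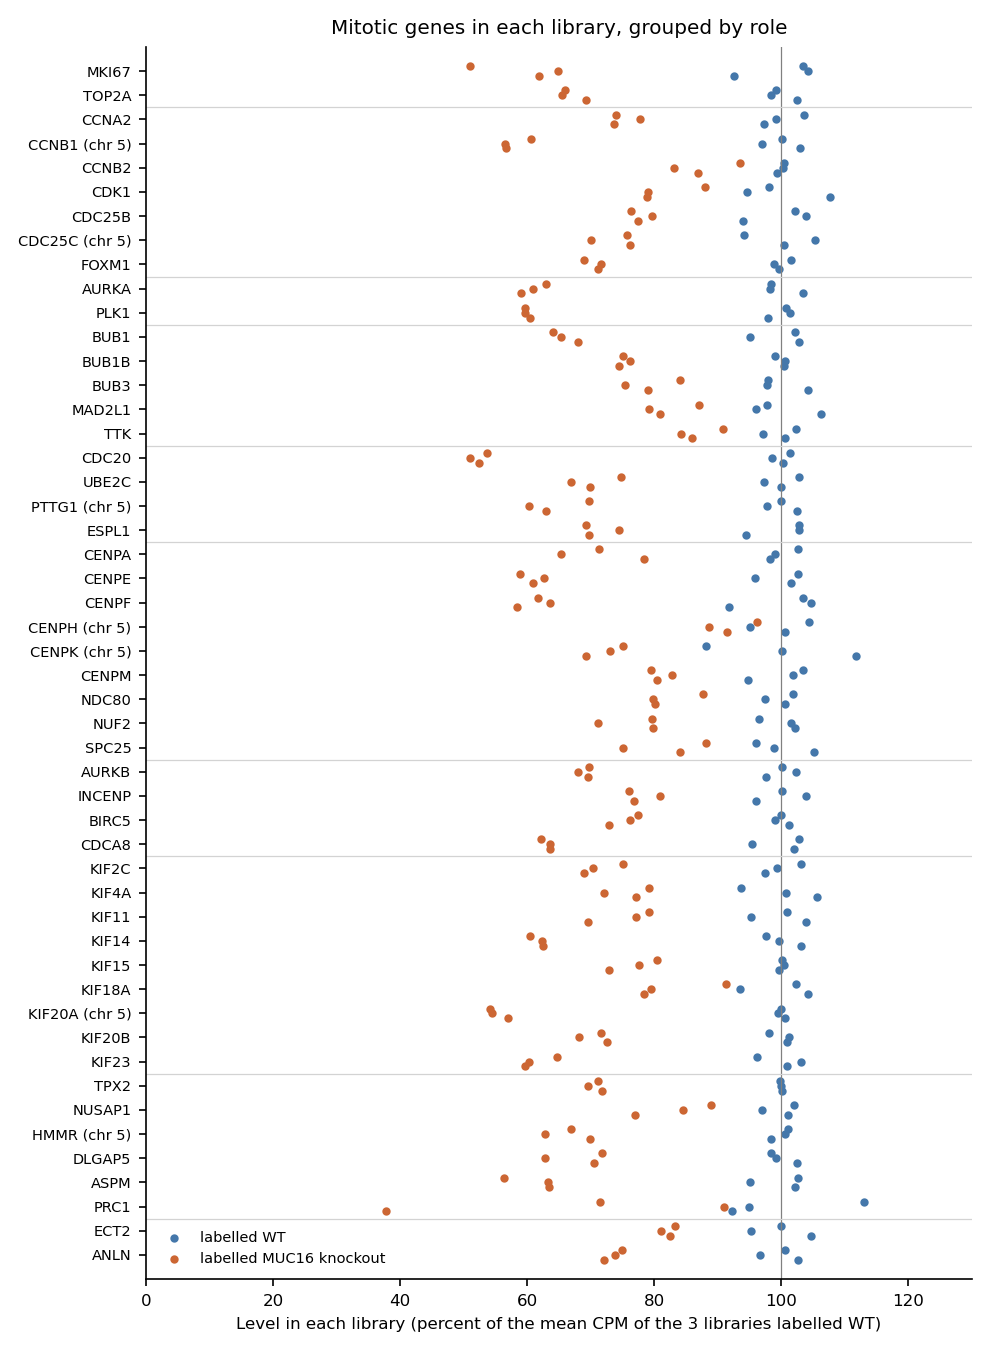
Level of each of the 50 genes in each library, as percent of the mean CPM of the 3 WT-labelled libraries (horizontal axis), with 1 point per library and grey lines between roles. The points of knockout-labelled libraries (orange) lie left of all WT-labelled ones (blue) in every row except CENPH.

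The level of a gene bears on this background. Well-expressed genes were lower more often than weak ones in these libraries: 48.5% of the 3162 genes between 64 and 256 CPM were called lower (median log2 fold change -0.10), and 32.8% of the 4705 between 16 and 64 CPM (median -0.04). Of the mitotic genes, 29 lie in the first class, all 29 lower with a median of -0.50, and 15 in the second, 14 lower with a median of -0.38. In the higher class 6.64% of all genes had a log2 fold change under the mitotic median, and in the lower class 11.8%. With cyclic loess, which scales by level, 48 of the 50 were lower and the median was -0.40 (25.1% of all genes lower).

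**Figure D3:**
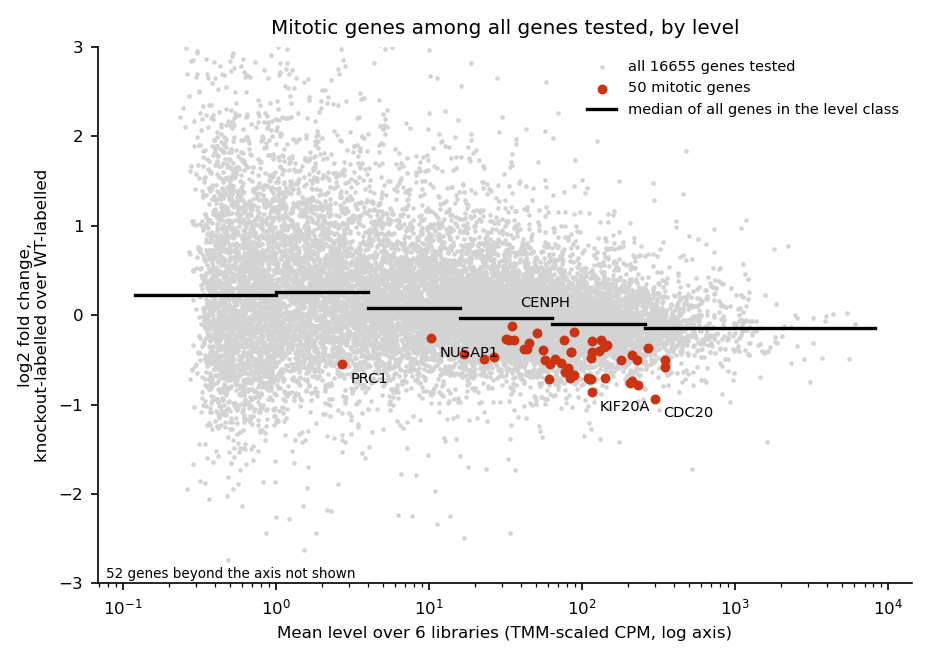
log2 fold change (vertical axis) against mean level over the 6 libraries (TMM-scaled CPM, log axis) for all 16655 genes tested (grey) and the 50 mitotic genes (red); black lines are medians of all genes in a level class. The red points all lie under 0 and under the black line of their class, and the black lines are at 0.22 under 1 CPM, 0.26 from 1 to 4 CPM and then step down to -0.14 over 256 CPM.

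Among the regulators of mitotic entry, all 7 genes fell, and the B-type cyclins fell unequally. CCNB1, cyclin B1, the partner that drives CDK1 into mitosis, was at 302, 284 and 294 CPM in WT-labelled libraries and 166, 166 and 178 CPM in knockout-labelled ones. The groups lie far apart, a fall of 42.0% (log2 fold change -0.79 ± 0.04, SE, edgeR adjusted p = 4.58e-13). CCNB2, cyclin B2, was at 94.1, 95.0 and 95.1 CPM and at 82.3, 78.7 and 88.5 CPM. It fell by 12.2% (-0.19 ± 0.05, adjusted p = 0.00266), and with cyclic loess it did not pass (-0.11, adjusted p = 0.0787). Per length, CCNB1 stood at 3.39 ± 0.119 times the level of CCNB2 in WT-labelled libraries and 2.24 ± 0.0574 times in knockout-labelled ones (SD, n = 3 each), with 3.28 the lowest ratio of the first group and 2.31 the highest of the second.

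FOXM1, the transcription factor of the G2 and M programme, was at 266, 264 and 271 CPM against 190, 191 and 184 CPM (-0.50 ± 0.04, adjusted p = 2.7e-10). It shares 15.9% of its exonic bases with ITFG2 on the opposite strand, which had 251 to 489 counts a library, and the library kit does not mark strand, so reads there cannot be told apart. CDC25B, a phosphatase that activates CDK1, had the highest mean CPM of these regulators, though CCNB1 lay above it in WT-labelled replicate 1. CDC25B was at 285, 316 and 310 CPM against 235, 242 and 232 CPM (-0.36 ± 0.04), and no values of the groups overlapped. CDC25C, its relative on chromosome 5, took the fewest reads, at 19.5, 20.4 and 18.3 CPM against 14.8, 13.6 and 14.7 CPM (-0.44 ± 0.08). CDK1 itself (-0.29 ± 0.05) and CCNA2, cyclin A2 (-0.41 ± 0.04), fell by 18.1% and 24.9%.

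MKI67, a coat protein of mitotic chromosomes and a common proliferation marker, was at 238, 267 and 265 CPM in WT-labelled libraries and 159, 167 and 131 CPM in knockout-labelled ones. Its fall of 40.8% (-0.76 ± 0.06, adjusted p = 6.81e-10) came with a wide spread, a coefficient of variation of 12.4% in knockout-labelled libraries, where replicate 3 was lowest. TOP2A, the topoisomerase that untangles sister chromatids, was steadier, at 426, 409 and 412 CPM against 288, 272 and 274 CPM (-0.58 ± 0.04). Per length, MKI67 stood at 0.2805, 0.329 and 0.324 times the level of TOP2A in WT-labelled libraries. In knockout-labelled ones it stood at 0.277, 0.308 and 0.240 times, so the groups overlap in this ratio.

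The kinases PLK1 and AURKA fell by 40.1% and 39.0%, against 18.1% for CDK1 and 30.9% for AURKB. PLK1, which acts at centrosomes and kinetochores, was at 258, 267 and 265 CPM against 159, 157 and 157 CPM (-0.74 ± 0.04, adjusted p = 4.13e-13). AURKA, the spindle pole kinase, was at 147, 139 and 140 CPM against 83.8, 86.5 and 89.3 CPM (-0.71 ± 0.05). The 3 values of PLK1 in knockout-labelled libraries differ by less than the SD of WT-labelled ones, 4.98 CPM.

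The spindle checkpoint genes had smaller falls, from -0.61 to -0.20 with a median of -0.33, and all 5 passed. BUB1, a kinase that recruits the other checkpoint proteins to the kinetochore, fell most, from 101, 93.0 and 99.9 CPM to 66.6, 63.9 and 62.7 CPM (-0.61 ± 0.05, adjusted p = 4.2e-10). TTK, also called MPS1, the kinase that starts the signal, fell least, from 54.9, 53.0 and 55.8 CPM to 46.8, 45.9 and 49.5 CPM (-0.20 ± 0.06, adjusted p = 0.0038). BUB3 took the most reads of the 5, at 170, 159 and 160 CPM against 129, 123 and 137 CPM (-0.33 ± 0.05). MAD2L1 (-0.28 ± 0.05) and BUB1B, the checkpoint protein BUBR1 (-0.41 ± 0.05), form with BUB3 and CDC20 the complex that holds anaphase back.

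CDC20, the activator of the anaphase-promoting complex and the target of that checkpoint, fell most of all 50 genes and had the highest level per length, 193 RPKM (CPM per kilobase of gene length) in WT-labelled libraries. It was at 394, 387 and 398 CPM in WT-labelled libraries and 206, 201 and 211 CPM in knockout-labelled ones, a fall of 47.7% (-0.93 ± 0.04, adjusted p = 6.48e-15). Per length its level was 13.2 ± 0.666 times that of MAD2L1 in WT-labelled libraries and 8.40 ± 0.226 times in knockout-labelled ones (SD, n = 3 each), and 8.90 ± 0.20 and 6.19 ± 0.206 times that of BUB1B. Neither ratio overlapped between the groups. PTTG1, securin, which holds separase inactive and lies on chromosome 5, was at 96.9, 92.4 and 94.4 CPM against 59.6, 57.0 and 65.9 CPM (-0.63 ± 0.05). ESPL1, separase itself, which cuts cohesin, was at 73.9, 80.4 and 80.5 CPM against 54.6, 58.2 and 54.3 CPM (-0.49 ± 0.05), and UBE2C, the ubiquitin-conjugating enzyme of the complex, fell by 29.5% (-0.50 ± 0.05).

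Centromere and kinetochore genes fell in 8 of 9 cases, with log2 fold changes from -0.72 to -0.12. CENPE, the kinesin that carries chromosomes to the spindle equator, was at 77.1, 72.8 and 78.0 CPM against 46.3, 47.5 and 44.7 CPM (-0.72 ± 0.05, adjusted p = 6.88e-11). CENPF, a large protein of the outer kinetochore, was at 162, 184 and 182 CPM against 103, 112 and 109 CPM (-0.71 ± 0.05). CENPH, of the inner kinetochore, was at 36.4, 34.4 and 37.7 CPM against 33.1, 32.1 and 34.8 CPM. Its groups overlap and it was the 1 gene that did not pass (-0.12 ± 0.06, adjusted p = 0.132). CENPK, which sits in the same complex, was at 34.5, 30.9 and 27.2 CPM against 21.3, 22.5 and 23.2 CPM (-0.47 ± 0.08).

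Of the NDC80 complex, the microtubule hook of the kinetochore, NDC80 fell by 17.5% (-0.27 ± 0.06), NUF2 by 23.2% (-0.38 ± 0.06) and SPC25 by 17.6% (-0.28 ± 0.07), and SPC24, its subunit outside the 50 genes, was lower too (-0.25 ± 0.07). CENPE stood at 0.741 ± 0.0107 times the level of NDC80 per length in WT-labelled libraries and at 0.547 ± 0.0443 times in knockout-labelled ones, and the groups do not overlap. CENPA, the histone that marks the centromere, fell by 28.3% (-0.48 ± 0.08) and CENPM by 19.1% (-0.31 ± 0.06).

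All 4 subunits of the chromosomal passenger complex, which corrects faulty attachments, fell. CDCA8, borealin, fell most, from 111, 104 and 111 CPM to 69.0, 69.1 and 67.5 CPM (-0.66 ± 0.05, adjusted p = 4.38e-11). INCENP, its scaffold, fell least, from 150, 162 and 156 CPM to 120, 126 and 118 CPM (-0.36 ± 0.04). The kinase AURKB fell by 30.9% (-0.53 ± 0.05) and BIRC5, survivin, by 24.5% (-0.40 ± 0.04). Per length the 4 stood close together in WT-labelled libraries, between 34.9 and 44.0 RPKM.

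Beside CENPE, the set holds 9 kinesins, motors that slide, bundle or shorten microtubules, and all 9 fell, with log2 fold changes from -0.86 to -0.26. KIF20A, the motor of the central spindle on chromosome 5, fell most of them, at 150, 148 and 149 CPM against 84.9, 81.2 and 80.6 CPM (-0.86 ± 0.04, adjusted p = 1.42e-13). It took the most reads of the 9 in WT-labelled libraries, and KIF2C, a microtubule depolymerase, took more in each knockout-labelled one (a mean of 95.1 ± 4.36 CPM, from 133 ± 3.85 CPM, SD, n = 3 each). KIF18A, which dampens chromosome movements, fell least, from 36.5, 32.7 and 35.9 CPM to 27.4, 27.8 and 32.0 CPM (-0.26 ± 0.07, adjusted p = 0.0037), and its groups come within 1 CPM of each other. KIF14 (-0.70 ± 0.05) and KIF23 (-0.70 ± 0.05), which work in cytokinesis, followed, and KIF2C, KIF4A, KIF11, KIF15 and KIF20B lay between -0.50 and -0.38. KIF20A stood at 3.85 ± 0.0723 times the level of KIF20B per length in WT-labelled libraries and at 3.02, 3.08 and 2.91 times in the 3 knockout-labelled ones.

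Of the proteins that bind spindle microtubules, TPX2, an activator of AURKA, took the most reads and had the highest level per length, at 406, 406 and 405 CPM against 291, 282 and 288 CPM (-0.50 ± 0.04, adjusted p = 1.67e-10). ASPM, a spindle pole protein, fell most, from 142, 132 and 143 CPM to 88.0, 87.9 and 78.3 CPM (-0.71 ± 0.05). HMMR, which anchors spindle poles and lies on chromosome 5, went from 95.7, 97.9 and 98.3 CPM to 68.0, 61.0 and 65.2 CPM (-0.59 ± 0.05), and DLGAP5 fell by 31.6%. None of these 4 had values that overlapped between the groups.

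NUSAP1 and PRC1 had the lowest levels per length of the 50 genes, 3.91 and 0.589 RPKM in WT-labelled libraries, and their calls were the least certain. NUSAP1, a microtubule bundler, was at 11.4, 10.9 and 11.5 CPM against 8.65, 9.49 and 10.0 CPM (-0.25 ± 0.10, adjusted p = 0.0389). PRC1, which crosslinks the central spindle, had 79, 83 and 82 counts against 24, 76 and 68 counts (-0.55 ± 0.23, adjusted p = 0.0487), with its lowest value in knockout-labelled replicate 1. Without this library the log2 fold change was -0.30 (adjusted p = 0.253), and the call was also lost without knockout-labelled replicate 3 or any 1 WT-labelled library (adjusted p from 0.0516 to 0.149). NUSAP1 lost its call without knockout-labelled replicate 1 or 2 or WT-labelled replicate 1 or 3 (adjusted p from 0.0698 to 0.142). Another protein-coding gene model on the same strand covers 62.2% of the exonic bases of NUSAP1 and 57.6% of those of PRC1. Reads there can belong to more than 1 gene, so the counts of both are uncertain, and with DESeq2 neither passed (adjusted p = 0.0723 and 0.0711). Only 5 of the 50 genes share more than 10% of their exonic bases with another gene, these 2 with FOXM1, PLK1 and BUB1B. Genes overlapping PLK1 and BUB1B held at most 15 and 1 counts. The same-strand model over NUSAP1 held 0 counts in every library, and that over PRC1 held 56 to 182. How shared reads were counted is not given, so a low count in an overlapping gene does not show that a member was unaffected. In all, 17 of the 50 genes share exonic bases with another gene. Under the 10% cut, CCNA2 (1917 to 3553 counts) shares 9.08% with EXOSC9 on the opposite strand (550 to 929 counts). CDC25C (289 to 550 counts) shares 8.78% with FAM53C on the opposite strand (1327 to 2280 counts). KIF20A (1659 to 3986 counts) shares 5.05% with BRD8 (1322 to 2400 counts) and CDC23 (1234 to 2313 counts), both on the opposite strand. CENPA (409 to 712 counts) shares 6.96% with SLC35F6 on the same strand (879 to 1343 counts). The part of such reads in their values was not tested. Annotated processed copies of members, and KIF4B and PTTG2, held at most 0.312% of the counts of their parent.

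Both cytokinesis genes fell. ECT2, which activates RhoA at the cleavage furrow, went from 152, 138 and 145 CPM to 120, 118 and 121 CPM (-0.28 ± 0.04, adjusted p = 1.28e-05). ANLN, anillin, the furrow scaffold, went from 249, 235 and 244 CPM to 175, 179 and 182 CPM (-0.44 ± 0.04, adjusted p = 4.36e-09).

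**Figure D4:**
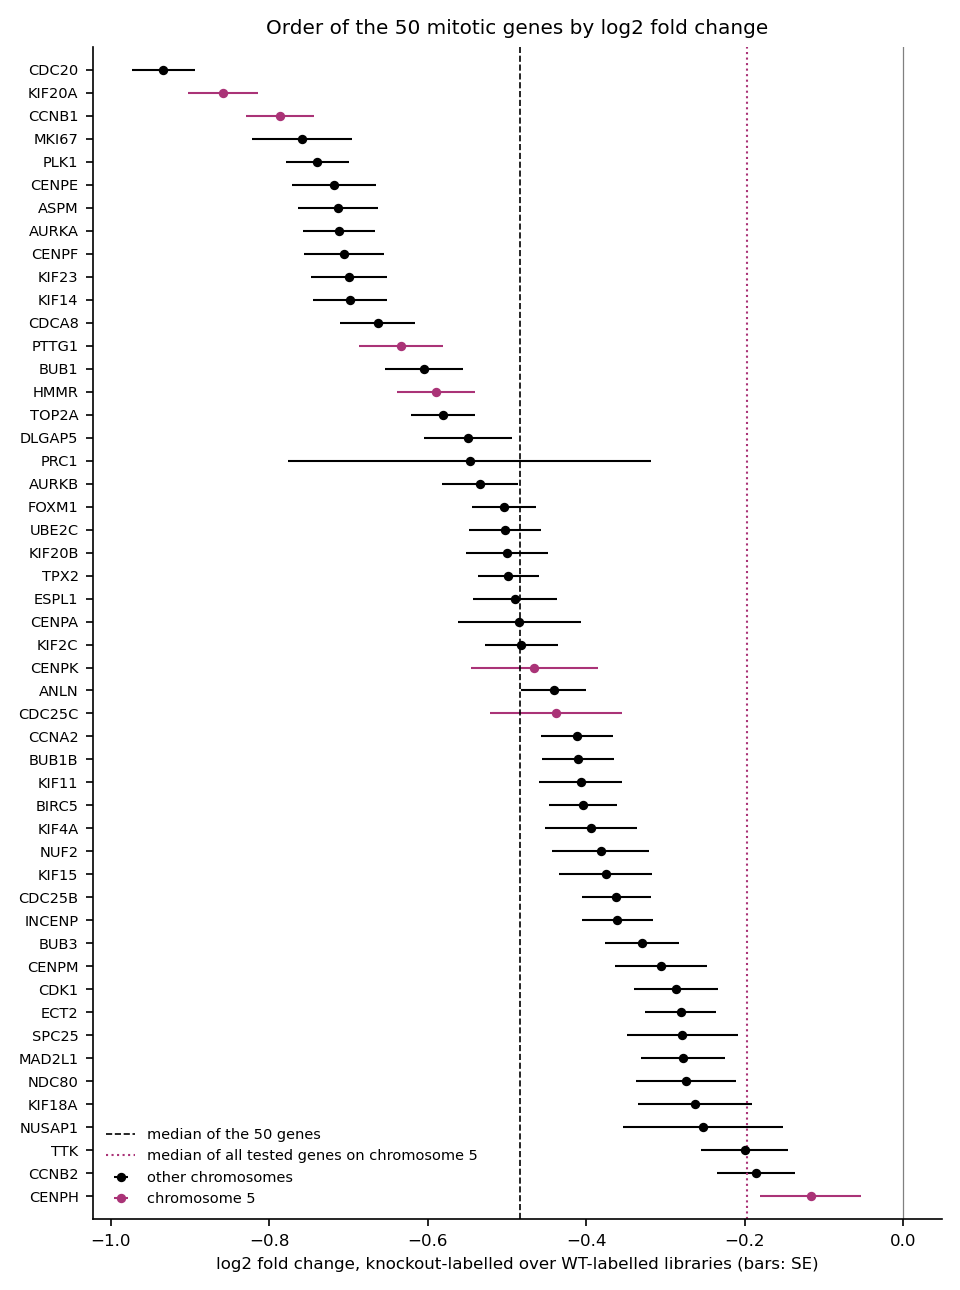
The 50 genes ordered by log2 fold change (horizontal axis, bars are SE, n = 3 libraries a group), with the 7 genes on chromosome 5 in purple. CDC20 at -0.93 and KIF20A at -0.86 are lowest, CENPH at -0.12 is highest, and most neighbours differ by less than their SE.

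In this order neighbouring genes mostly differ by less than their standard errors, which run from 0.04 for TPX2 to 0.23 for PRC1, while the ends are far apart. CDC20, KIF20A, CCNB1, MKI67 and PLK1 lead, and CENPH, CCNB2, TTK, NUSAP1 and KIF18A come last. The spread among replicates was small, with a median coefficient of variation of 3.08% in WT-labelled libraries and 4.11% in knockout-labelled ones. Within the knockout group, replicate 3 was highest for 26 of the 50 genes and replicate 2 lowest for 23, and within the WT group replicate 2 was lowest for 24.

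The 50 genes lie on 18 chromosomes, and 7 of them, CCNB1, CDC25C, PTTG1, CENPH, CENPK, KIF20A and HMMR, lie on chromosome 5. Genes of this chromosome were lower more often than others: 46.9% of its 781 tested genes were called lower, their median log2 fold change was -0.20, and its share of all counts was 5.22% ± 0.0515 in WT-labelled libraries and 4.30% ± 0.0177 in knockout-labelled ones (SD, n = 3 each). Of the 7 mitotic genes there 6 were lower, with a median of -0.59. Without them, all 43 genes on other chromosomes were lower with a median of -0.48, and in all 43 the groups did not overlap. Of the genes outside chromosome 5, 24.9% were called lower, 28.0% did not overlap in this direction, and their median was 0.01. When all genes of chromosome 5 were left out before scaling and fitting, the 43 were again all lower (median -0.49).

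Changes on chromosome 5 differed in size between neighbours. CCNB1 (GRCh38 chr5:69167010-69178245, plus strand) and CENPH (chr5:69189548-69210357, plus strand) are neighbours separated by 11303 bases, and their log2 fold changes were -0.79 ± 0.04 and -0.12 ± 0.06 (SE). Per length, CCNB1 stood at 7.28, 7.25 and 6.83 times the level of CENPH in WT-labelled libraries and at 4.41, 4.54 and 4.49 times in knockout-labelled ones. KIF20A (chr5:138178719-138187715, plus strand) and CDC25C (chr5:138285265-138338355, minus strand) also lie near each other and had -0.86 ± 0.04 and -0.44 ± 0.08. HMMR (chr5:163460203-163491945) and PTTG1 (chr5:160421822-160428744), both on the plus strand towards the end of the long arm, had -0.59 and -0.63, and CENPK (chr5:65517766-65563171, minus strand) had -0.47.

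Other genes of the same machinery were also more often lower than higher. Over 6 lists of mitotic genes, 92 of 158 were lower and 11 higher (58.2% lower), against 25.9% lower and 26.7% higher of all genes tested. By level, 42 of 60 between 64 and 256 CPM were lower (70.0%), where 48.5% of all genes of that level were, and 41 of 72 between 16 and 64 CPM (56.9%), where 32.8% of all were. Of 44 other spindle, centrosome and cytokinesis genes 29 were lower and 2 higher (median log2 fold change -0.32). KIF18B, a motor that shortens astral microtubules (-0.88 ± 0.05), FAM83D (-0.88 ± 0.04), CKAP2L (-0.67 ± 0.06) and TROAP (-0.67 ± 0.06) fell most. Of 34 other centromere and kinetochore genes 20 were lower and 2 higher (median -0.27). KNL1, the platform on which BUB1 and BUB3 dock, went from 90.9 ± 2.11 to 55.0 ± 0.504 CPM (SD, n = 3 each), and SKA3 (-0.67), CENPP (-0.65) and HJURP, the chaperone of CENPA (-0.65), followed. Condensin and cohesin genes were 17 lower and 1 higher of 23 (median -0.26), with SGO2 (-0.68), NCAPG (-0.51), SMC4 (-0.50) and NCAPD3 (-0.47) lowest.

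Anaphase-promoting complex genes were 9 lower and 2 higher of 21 (median -0.12). UBE2S, the enzyme that extends the ubiquitin chains UBE2C starts, went from 561 ± 12.7 to 335 ± 15.6 CPM (-0.74 ± 0.04, SE). TRIP13 (-0.49) and CDC23 (-0.48) are both on chromosome 5, and ANAPC2 fell by less (-0.29). Of 22 other kinases, phosphatases and partners of mitotic entry and exit 10 were lower and 3 higher (median -0.14), with CKS2, which binds CDK1 (-0.61), CCNF (-0.60) and GTSE1 (-0.58) lower and CDC14A, at 1.92 and 2.86 CPM, higher (0.59). Tubulins were 7 lower and 1 higher of 14 (median -0.21). The beta-tubulin TUBB4B went from 1199 ± 29.1 to 725 ± 19.2 CPM, TUBA1C (-0.64) and TUBE1 (-0.53) were lower, and TUBB4A, at a mean of 0.271 CPM against 0.942 CPM, was higher (1.72). Tubulins are close in sequence, so reads can be shared between them.

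**Figure D5:**
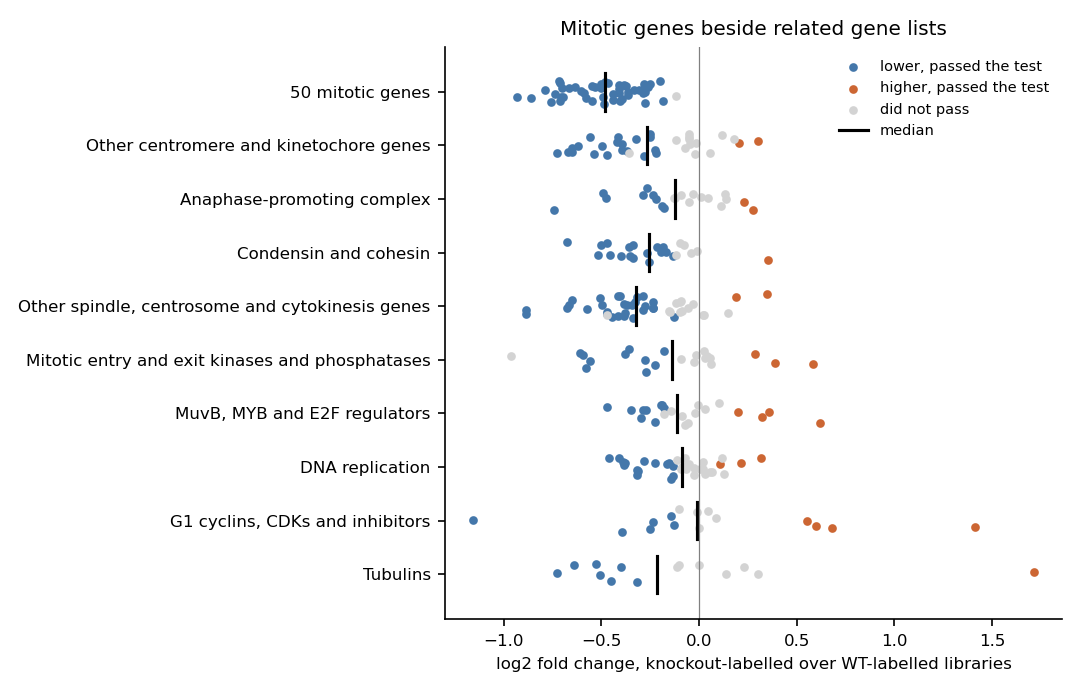
log2 fold change (horizontal axis) of each gene in the mitotic set and in 9 related lists, with 1 point per gene, blue where lower, orange where higher and grey where the test was not passed, and a black bar at each median. The medians run from -0.48 for the 50 mitotic genes to -0.01 for G1 cyclins, CDKs and inhibitors.

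The 3 lists that act before mitosis had medians nearer to 0, with 30 of 72 genes lower and 11 higher. By level, 16 of their 31 genes between 64 and 256 CPM were lower (51.6%) and 9 of 26 between 16 and 64 CPM (34.6%), close to the 48.5% and 32.8% of all genes at those levels. DNA replication genes were 15 lower and 3 higher of 35 (median -0.09), with POLA1 (-0.46), CDC45 (-0.41), GINS4 (-0.39) and TYMS (-0.38) lowest. Regulators of the MuvB, MYB and E2F families were 9 lower and 4 higher of 22 (median -0.11). Of these TFDP2 (0.62 ± 0.07, SE) and E2F1 (0.36 ± 0.05) were higher and E2F7 (-0.47 ± 0.05) and LIN9, a MuvB subunit (-0.35 ± 0.07), lower. G1 cyclins, CDKs and inhibitors were 6 lower and 4 higher of 15 (median -0.01), and this median pools genes that moved in opposite directions. All 6 lower genes were cyclins or CDKs: CCND2, CDK6 (-0.39), CDK4 (-0.25), CCNE1 (-0.235), CCND1 (-0.15) and CCND3 (-0.13). All 4 higher genes were inhibitors, CDKN2D (0.55) among them. The inhibitors CDKN1C, from 4.14 ± 1.11 to 10.9 ± 1.08 CPM, CDKN2B (0.68 ± 0.07) and CDKN2A (0.60 ± 0.05) were higher, and CCND2 was lower, at 1.62 CPM against 0.721 CPM. Not all mitotic lists stood apart from the lists that act before mitosis. Anaphase-promoting complex genes (42.86% lower) and mitotic entry and exit genes (45.45%) lay near DNA replication (42.86%) and MuvB, MYB and E2F genes (40.91%). The largest shares were in the kinetochore (58.82%), spindle (65.91%) and condensin and cohesin (73.91%) lists. Shares by level were taken over pooled lists and not for each list. The differences between lists were not tested.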

How the data were processed

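RNA sequencing libraries of T3M4 cells, 3 titled T3M4WT and 3 titled T3M4M16, were grouped by their titles, and the genotype labels give MUC16 expressing and MUC16 knockout. Libraries came from RNeasy-purified RNA by a NEBNext Ultra protocol, per the labels' protocols, and this kit leaves reads without strand. The submitters' processing notes name GRCh38 and hg38 as builds and DESeq, STAR, HISAT2 and fastp as tools. What each tool did, and how genes were counted, is not given in the sources used here. The authors deposited raw counts per gene, used here for every test. All 58735 genes have the position of GENCODE release 29. A second table the authors deposited holds normalised signal and FPKM, not used here, and the authors' log2 fold changes and p-values, used only where that table is named.

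Tests used edgeR 4.0.16 in R 4.3.3 on these counts (TMM, filterByExpr with a minimum count of 10 and total of 15, quasi-likelihood, two-sided, group as the only term), adjusted by Benjamini-Hochberg over 16655 genes, threshold 0.05. Each standard error is the log2 fold change divided by the root of its F value. A level is a TMM-scaled CPM, and levels per length divide these by the deposited gene length. Totals of 19088927 to 28612621 counts left at least 24 counts for each member in each library. The fit was tested on simulated data. DESeq2 1.42.0 and limma 3.58.1 served alternatives. No pair of libraries within a group was a duplicate at the level of counting noise (chi-square per degree of freedom 2.43 to 6.27).

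The 50 genes, the lists and the alternatives were chosen with earlier results of these data known. Values in every library are given, for each role, for the lowest and highest log2 fold change and the highest CPM, and for MKI67, FOXM1, CDC20, members on chromosome 5 and those with no call. Of each list, up to 4 called genes with the largest changes are named. The other called G1 genes were added after their values were seen. NUSAP1, PRC1 and ratios between members were singled out after their values were seen. Promoters are RefSeq windows on GRCh38.p14, searched on both strands for exact letters.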

Additional observations from a re-analysis of the deposited data

How the results depend on the processing

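The counts and medians of the mitotic genes, the count of all called genes and the log2 fold changes of members were recomputed under 18 alternatives. The related lists, the promoter splits and the ratios were not. The count of lower mitotic genes stayed at 47 to 49 of 50 in every alternative that kept chromosome 5, and the count higher at 0 throughout. Leaving out 1 library gave 47 to 48 lower, 41 to 42 outside chromosome 5, medians of -0.50 to -0.46 over all members and -0.50 to -0.43 outside chromosome 5, and 7921 to 8221 called genes over the table. The median moved by more than the spread between libraries (0.0259) with upper-quartile factors (-0.43, also -0.43 outside chromosome 5), cyclic loess (-0.40 and -0.37) and a stricter filter of 50 counts in 3 libraries (-0.46 and -0.455). Outside chromosome 5 it also moved by more than this without knockout-labelled replicate 1 (-0.43) or 2 (-0.44). With upper-quartile factors the median of all genes tested rose as well, from 0.0035 to 0.0589, so that move was shared by genes at large. The median of all genes was -0.014 with cyclic loess and 0.0007 with the stricter filter. None of the 893 values of single members reversed, and 19, all of CCNB2, NUSAP1 and PRC1, lost the call. At a threshold of 0.01 there were 47 lower mitotic genes, and 6935 genes were called in both directions together. With the replicate number as a block 49 members were lower (median -0.49) and 8442 genes were called in all. Same-numbered libraries correlated at 0.0116, 0.0205 and -0.024 in their deviations from the group means, and not every library correlated best with its own number, so the numbers do not show pairing. NUSAP1 and PRC1 have the lowest counts of the 50 genes, and the part of depth and of overlapping gene models in their lost calls was not tested.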

Other observations

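Some genes of the mitotic machinery went the other way. Of the 158 genes in the 6 mitotic lists, 11 were higher in knockout-labelled libraries. Beside those named above they include CENPC, the inner kinetochore protein that binds centromeric nucleosomes. It went from 16.4 ± 0.636 to 20.1 ± 0.747 CPM (SD over 3 libraries each, a log2 difference of 0.30, edgeR adjusted p = 0.00252). They also include the anaphase-promoting complex subunit ANAPC16 (0.28), the cohesin acetyltransferase ESCO1 (0.35) and the phosphatase subunit PPP1CB (0.29). The phosphatase CDC14B (0.39) and the kinases NEK7 (0.19) and NEK9 (0.35) were higher too. Of the 11 higher genes in lists that act before mitosis, MCM6, a helicase subunit of replication, was one (0.32, 116 to 145 CPM). These genes were picked for their direction after their values were seen.

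MYBL2, the MYB factor that joins MuvB before mitosis, fell from 321 ± 5.29 to 266 ± 3.38 CPM (-0.27 ± 0.04, SE, adjusted p = 3.13e-06), a smaller change than that of FOXM1 (-0.50 ± 0.04). CDKN1A, p21, did not pass the test and was at 63.6 ± 4.36 and 63.2 ± 0.859 CPM (-0.01 ± 0.05, adjusted p = 0.885).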
